A study of Homo sapiens with 4 samples.

Results

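APC and CTNNB1, the gene of β-catenin, were 2 of the 184 target genes on a qRT-PCR panel run on HEK293 cells. They were taken by their gene symbols among the target assays, and this choice was made with earlier results of these data known. HEK293 is a long-established cell line from human embryonic kidney. The panel compared HEK293 cells stably transfected with pcDNA4 carrying PRL-1 (HEK293-PRL-1) with HEK293 cells stably transfected with the empty pcDNA4 vector (HEK293-vector), each as 2 biological replicates grown in the same medium without further treatment. The question was how expression of genes of integrin signaling, the cytoskeleton and cell motility differs when PRL-1, a protein tyrosine phosphatase encoded by PTP4A1, is overexpressed. The replicates are cultures of the same stable lines, and the labels and methods do not say whether a line is 1 clone. The PTP4A1 assay stayed at a Ct of 40 in all 4 samples, HEK293-vector included, so that it cannot tell whether PRL-1 was overexpressed. The study states that earlier work found PRL-1 mRNA and protein raised in this line over the endogenous level of the vector cells. The panel holds no assay that defines HEK293 cells.

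APC is a scaffold protein that holds β-catenin together with Axin and the kinases GSK3 and CK1 in the so-called destruction complex. There β-catenin is phosphorylated and marked for degradation, and a Wnt ligand at the cell surface stops this, so that β-catenin builds up and turns on target genes with TCF/LEF factors. A separate pool of β-catenin links cadherins to the actin cytoskeleton, and APC also binds microtubules. The amount of β-catenin protein is set to a large part by its degradation, which mRNA measurements do not show.

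The regulatory sequence around the annotated start sites is shown for both genes because both transcripts were higher in HEK293-PRL-1 relative to 18S. RefSeq on GRCh38.p14 lists 1 promoter window for CTNNB1, at chr3:41199255-41199554, and 2 for APC, at chr5:112707248-112707547 and chr5:112737635-112737934, all on the plus strand. Each window runs from 250 bases before a start site to 50 bases after it. Capitals mark every match, on either strand, to the GC box GGGCGG, the box named CCAAT, the TATA element in the form TATAA, the E-box (letters CACGTG) or the TCF/LEF site CTTTGA, the site that β-catenin is known to act through.
CTNNB1: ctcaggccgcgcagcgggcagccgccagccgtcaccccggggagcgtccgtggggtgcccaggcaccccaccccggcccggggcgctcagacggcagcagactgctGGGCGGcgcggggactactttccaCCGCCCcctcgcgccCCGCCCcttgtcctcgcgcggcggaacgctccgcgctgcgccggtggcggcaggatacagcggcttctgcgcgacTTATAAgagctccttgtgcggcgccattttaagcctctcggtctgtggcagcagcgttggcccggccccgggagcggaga
APC, upstream start site: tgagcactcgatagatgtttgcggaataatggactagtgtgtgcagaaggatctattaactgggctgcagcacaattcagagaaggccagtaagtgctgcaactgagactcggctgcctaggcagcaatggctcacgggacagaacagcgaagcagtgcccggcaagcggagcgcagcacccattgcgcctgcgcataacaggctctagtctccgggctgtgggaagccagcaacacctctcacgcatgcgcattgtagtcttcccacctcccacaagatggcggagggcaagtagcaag
APC, downstream start site: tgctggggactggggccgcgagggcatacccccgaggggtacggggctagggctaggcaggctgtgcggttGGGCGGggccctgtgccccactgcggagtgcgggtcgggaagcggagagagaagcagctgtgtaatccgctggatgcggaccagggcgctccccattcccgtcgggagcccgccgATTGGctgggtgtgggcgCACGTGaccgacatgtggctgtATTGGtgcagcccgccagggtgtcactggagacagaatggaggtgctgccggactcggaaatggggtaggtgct

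The CTNNB1 window held 3 GC boxes and a TATA element that reads on both strands, in matches at 30 and 29 bases before the start site that overlap each other. The downstream APC window held 1 GC box, 2 CCAAT boxes and 1 E-box, and the upstream APC window held 0 of the 5 motifs. A TCF/LEF site in these letters was found in 0 of the 3 windows. Over 35116 promoter windows of the same length, 45.0% held a GC box, 34.6% a CCAAT box, 20.4% a TATA element, 7.26% an E-box and 12.9% a TCF/LEF site. A match is a run of letters and not a measured binding site. The TaqMan assays do not tell which APC start site a transcript came from.

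In each sample, every target was amplified in 1 well over 40 cycles, and 18S ribosomal RNA in 2 wells, 1 per plate. Ct, the threshold cycle, is where the fluorescence of the probe passes a set level, so that a lower Ct means more template. Of the 184 target assays 174 gave a Ct under 40 in 1 or more samples, and the APC and CTNNB1 assays were below it in all 4. Both assays were on the same plate, while those of GSK3B and CDH1, compared with them below, were on the other plate of the sample. The deposited columns mark the samples of a group a and b, and these letters name them here. Whole cultures were lysed, so that a change in the share of expressing cells cannot be told apart from a change per cell.

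Relative to 18S, APC transcripts were 25.4-fold higher and CTNNB1 transcripts 6.74-fold higher in the HEK293-PRL-1 samples. APC rose more than CTNNB1, by 3.77-fold, in a comparison within each sample that needs no reference gene. The size of both changes depended on the reference, and the CTNNB1 change lost its significance with B2M, while that of APC kept it under all references used here.

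For APC (assay Hs00181051_m1) the raw Ct was 34.6 and 34.4 in HEK293-vector a and b and 30.1 and 29.9 in HEK293-PRL-1 a and b. Both HEK293-PRL-1 samples thus passed the threshold more than 4 cycles before either HEK293-vector sample. The 18S Ct hardly moved beside this, at 13.9 and 14.0 in HEK293-vector and 14.2 and 14.1 in HEK293-PRL-1, each the mean of 2 wells. With 18S subtracted, APC in HEK293-vector was at a ΔCt of 20.6 ± 0.260 cycles (SD, n = 2), and APC in HEK293-PRL-1 was at 15.9 ± 0.116 cycles (SD, n = 2). The ΔCt therefore fell by 4.67 cycles, which is the log2 fold change, with a standard error of 0.24 and an adjusted p of 0.00111 from limma (Benjamini-Hochberg, 174 assays). This is a fold change of 25.4 with a 95% interval from 16.2 to 39.9. The change between samples of the same letter, which are not known to pair cultures, was 4.77 for a and 4.56 for b.

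For CTNNB1 (assay Hs00355045_m1) the raw Ct was 29.4 and 28.8 in HEK293-vector a and b and 26.7 and 26.3 in HEK293-PRL-1 a and b. The groups did not overlap, but the samples of each group lay further apart than for APC. Less 18S, CTNNB1 in HEK293-vector was at 15.1 ± 0.533 cycles (SD, n = 2), and CTNNB1 in HEK293-PRL-1 was at 12.4 ± 0.278 cycles (SD, n = 2). This gave a log2 fold change of 2.75 with a standard error of 0.35 and an adjusted p of 0.00288 from limma. On the linear scale it is 6.74-fold, with a 95% interval from 3.53 to 12.9. Samples of the same letter, again not known to be pairs, gave 2.93 for a and 2.57 for b. When the variance of CTNNB1 was taken from its own 4 samples alone, its adjusted p was 0.0596, while that of APC was 0.0294.

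**Figure D1:**
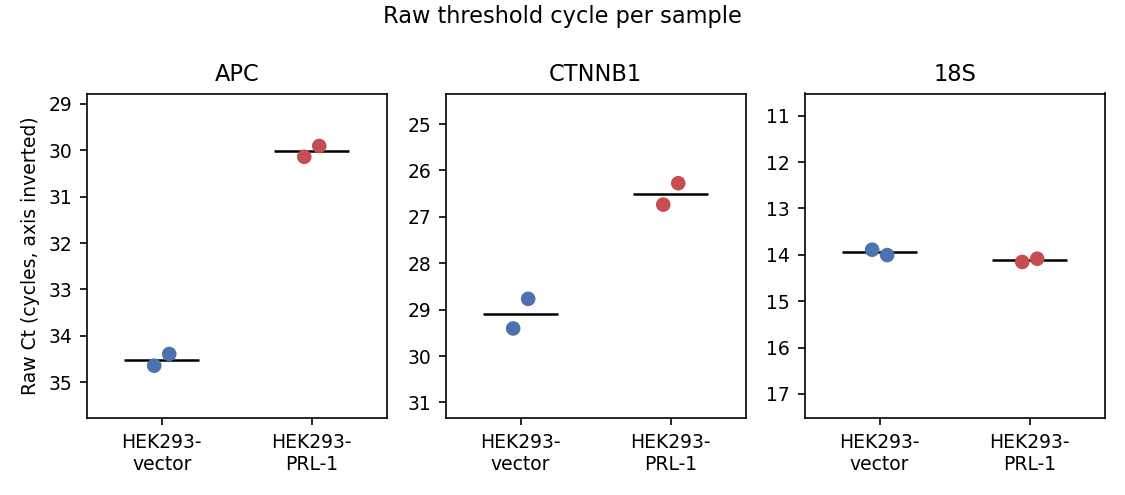
Raw Ct in cycles (inverted vertical axis, so that more template is higher) of APC, CTNNB1 and 18S in the 2 HEK293-vector and 2 HEK293-PRL-1 samples. Points are samples (the mean of 2 wells for 18S), lines are group means, and each panel spans the same number of cycles: APC moved from 34.5 to 30.0 on average and CTNNB1 from 29.1 to 26.5, with 18S at 13.9 and 14.1.

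Both calls have to be read against the whole panel. The study picked its genes partly for changes in its microarray or protein data, so that the panel is not a neutral background. Relative to 18S, 58.6% of the 174 assays were called higher in HEK293-PRL-1 and 7.47% lower, and in 69.0% the groups did not overlap, with the HEK293-PRL-1 samples on the higher side. Being called higher was therefore common among the assays, and the 2 members are no exception in that respect. An exact two-sided permutation test of 2 against 2 samples gives p = 0.333 for each gene, the smallest it can give. The size of the change separates the 2 genes from the middle of the panel to a different degree. APC ranked 6 of 174 by log2 fold change and lay 3.33 above the median of the assays, and CTNNB1 ranked 49 and lay 1.41 above it. Ranks and distances from the median do not depend on which reference gene is subtracted, since it shifts every assay of a sample alike.

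The reference set the size of the changes. With GAPDH in place of 18S the log2 fold change was 4.11 for APC (adjusted p = 0.000798 from limma) and 2.20 for CTNNB1 (adjusted p = 0.00321). Subtracting the median over the 165 assays with a Ct under 40 in every sample, it was 2.48 for APC (adjusted p = 0.000964) and 0.57 for CTNNB1 (adjusted p = 0.0375). With B2M it was 2.29 for APC (adjusted p = 7.01e-05) and 0.37 for CTNNB1 (adjusted p = 0.552), where the 95% interval of CTNNB1 ran from −0.67 to 1.41. In that fit limma put the same error on every assay and treated it as known exactly, with unlimited degrees of freedom, although it came from these same samples. Error in B2M itself also enters every assay alike. The p-values and calls with B2M, here and below, can therefore not be read like those of the other fits. Relative to 18S, B2M itself was called higher at 2.38 (adjusted p = 0.00167), and GAPDH was at 0.55 (adjusted p = 0.0793). The B2M wells of HEK293-vector a lay apart, at a raw Ct of 28.1 and 28.7, and those of the other samples lay closer together. The 18S wells of a sample differed by at most 0.033 cycles. Whether 18S or another of these follows the amount of mRNA in the cells was not tested. With 18S the median over all assays was 1.34, and it moved to 0.79 with GAPDH, −0.85 with the median Ct and −1.04 with B2M, so that only the part of a change above these values sets a gene apart from the panel.

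**Figure D2:**
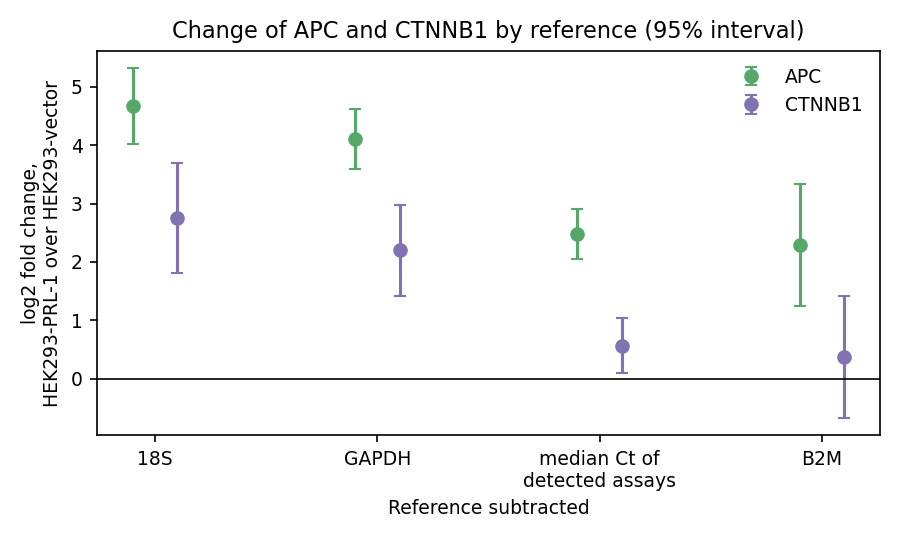
Log2 fold change of APC and CTNNB1 (vertical axis, HEK293-PRL-1 over HEK293-vector, 2 samples per group) with each of 4 references subtracted (horizontal axis). Points are estimates and bars 95% intervals from limma: APC stayed above 0 throughout, from 4.67 with 18S to 2.29 with B2M, and the interval of CTNNB1 crossed 0 with B2M.

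The difference between the APC and CTNNB1 Ct of the same sample is free of the reference gene and of the amount of cDNA added. APC minus CTNNB1 was 5.24 and 5.62 cycles in HEK293-vector a and b and 3.40 and 3.63 cycles in HEK293-PRL-1 a and b. The groups were 1.61 cycles apart at their closest, more than the spread within either group. The difference fell from 5.43 ± 0.273 cycles (SD, n = 2) to 3.52 ± 0.162 cycles (SD, n = 2), a change of 1.91 cycles (standard error 0.24, adjusted p = 0.00188 from limma over 173 assays with CTNNB1 as the reference). On the scale of a doubling per cycle, APC transcripts gained 3.77-fold on CTNNB1 transcripts, with a 95% interval from 2.42 to 5.87. In that fit 13.9% of the 173 assays were called higher, APC among them, and 60.1% lower, so that APC was in the smaller set of assays that rose by more than CTNNB1. The exact permutation p of the 4 differences was 0.333, again the smallest possible. An unequal efficiency of the assays would scale this change. With 1.9-fold amplification per cycle assumed for APC alone it was 1.58, and for CTNNB1 alone 2.10. The difference in cycles is not a ratio of transcript numbers, since the assays were not calibrated against each other.

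**Figure D3:**
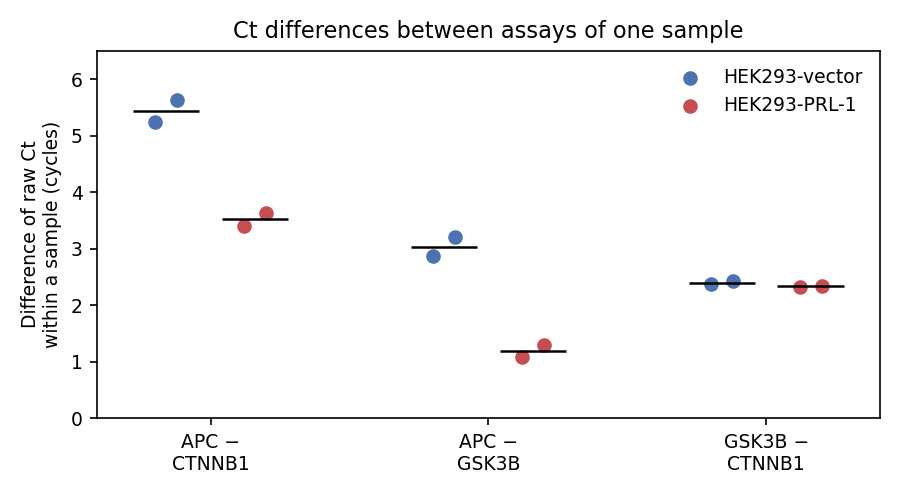
Differences between the raw Ct values of 2 assays in the same sample (vertical axis, cycles) for 3 pairs of assays, with the 2 HEK293-vector and 2 HEK293-PRL-1 samples as points and group means as lines. APC minus CTNNB1 and APC minus GSK3B fell by 1.91 and 1.85 cycles, while GSK3B minus CTNNB1 moved by 0.06. GSK3B was on another plate than APC and CTNNB1.

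The other Wnt pathway genes on the panel were taken as a list of 22 assays, of which 21 were tested because the MMP9 assay never went below a Ct of 40. Relative to 18S, 13 of the 21 were called higher in HEK293-PRL-1 (61.9%) and 0 lower, with limma, and 0 were lower at an unadjusted p under 0.05. The median log2 fold change of the list was 1.81, beside 1.34 over all 174 assays. The share called higher was close to the 58.6% of the panel. The reference decided most of these calls. With GAPDH 12 of the 13 were still called higher, with the median Ct 6 (CSNK2A1, GSK3B, MAP3K7, PPP2CA, ROCK2 and RYK) and with B2M 1 (ROCK2). Of the 13 higher calls 6 went below 0 with B2M and 5 with the median Ct, and PRKCA was called lower with both. With 18S kept but each assay tested on its own variance alone, 9 of the 13 kept their call. GSK3B (adjusted p = 0.0564), WNT5A (adjusted p = 0.0596), CCND1 (adjusted p = 0.0614) and PRKCA (adjusted p = 0.153) lost it, and MMP2 gained one (adjusted p = 0.0468).

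Of the enzymes that act on β-catenin or its destruction complex, 3 of 4 rose relative to 18S, beside 58.6% of the panel. GSK3B encodes the kinase GSK3β, which phosphorylates β-catenin for degradation, and its ΔCt fell from 17.9 and 17.2 cycles in HEK293-vector a and b to 14.9 and 14.5 cycles in HEK293-PRL-1 a and b. That is a rise of 2.82 on the log2 scale with a standard error of 0.34 and an adjusted p of 0.00238 from limma, close to the rise of CTNNB1. PPP2CA, the catalytic subunit of the phosphatase PP2A, which can dephosphorylate components of the complex, rose by 2.92 (adjusted p = 0.00174). CSNK2A1, the catalytic subunit α of the kinase CK2, rose by 3.34 (adjusted p = 0.00174). These 3 genes lost their call with B2M, where GSK3B was at 0.44 (adjusted p = 0.482), PPP2CA at 0.54 (adjusted p = 0.378) and CSNK2A1 at 0.96 (adjusted p = 0.105). CSNK2B, the regulatory subunit of the same kinase, was at 0.34 (standard error 0.21, adjusted p = 0.231), and it was called lower with B2M (−2.04, adjusted p = 0.000362) and the median Ct (−1.85, adjusted p = 0.00204).

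The distance between the GSK3B and CTNNB1 assays, which were on different plates, barely moved between samples. GSK3B minus CTNNB1 was 2.38 and 2.42 cycles in HEK293-vector a and b and 2.33 and 2.34 cycles in HEK293-PRL-1 a and b, although the raw CTNNB1 Ct ranged from 29.4 to 26.3. The change of this difference was 0.06 (standard error 0.20, adjusted p = 0.775 from limma), with a 95% interval from −0.45 to 0.58. A change this small was not particular to GSK3B, since PTP4A2, which is not on the Wnt pathway list, was at −0.02 in the same fit. APC minus GSK3B moved by 1.85 cycles, from 2.86 and 3.20 cycles in HEK293-vector to 1.08 and 1.29 cycles in HEK293-PRL-1. Of the 4 enzymes, CSNK2A1 rose by 0.58 more than CTNNB1 (adjusted p = 0.0479) and CSNK2B by 2.41 less (adjusted p = 0.00183). In that fit 13.9% of the 173 assays were called higher and 60.1% lower.

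The ligand and the receptor on the list both rose relative to 18S. RYK, a receptor of Wnt ligands with an inactive kinase domain, rose by 3.34 (standard error 0.34, adjusted p = 0.00174 from limma), and lost its call with B2M, at 0.96 (adjusted p = 0.105). WNT5A, a ligand known for signaling that does not use β-catenin, rose by 1.81 (standard error 0.28, adjusted p = 0.00464), but B2M as the reference put it at −0.57 and the median Ct at −0.37. Relative to CTNNB1, WNT5A fell by 0.94 (adjusted p = 0.0140 from limma), beside 60.1% of the panel called lower.

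CDH1, which encodes E-cadherin and thus a membrane partner of β-catenin, did not follow CTNNB1. Its raw Ct was 33.5 and 33.1 in HEK293-vector and 33.0 in both HEK293-PRL-1 samples, which relative to 18S is 0.44 on the log2 scale, with a standard error of 0.27 and an adjusted p of 0.224 from limma. It was called lower with B2M (−1.94, adjusted p = 0.000693) and the median Ct (−1.75, adjusted p = 0.00163). CDH1 minus CTNNB1 widened from 4.08 and 4.30 cycles in HEK293-vector a and b to 6.31 and 6.69 cycles in HEK293-PRL-1 a and b. Relative to CTNNB1, CDH1 therefore fell by 2.31 on the log2 scale (standard error 0.24, adjusted p = 0.00171 from limma). A lower call was common in that fit, at 60.1% of the 173 assays, and their median was −1.46.

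Of the genes described as targets of β-catenin with TCF factors, 2 of 6 tested were called higher relative to 18S, beside 58.6% of the panel. CCND1, which encodes cyclin D1, rose by 1.91 (standard error 0.29, adjusted p = 0.00464 from limma) and MMP14, a membrane-bound matrix metalloproteinase, rose by 1.49 (adjusted p = 0.00488), though with B2M and with the median Ct both were below 0. The raw Ct of CCND1 was 29.3 and 28.8 in HEK293-vector and 27.4 and 27.2 in HEK293-PRL-1, with no overlap of the groups. VEGFA, the vascular growth factor, was at −0.02 and FN1, which encodes fibronectin, at −0.10, with adjusted p of 0.964 and 0.783. MMP2, a secreted matrix metalloproteinase, was at 0.23 (adjusted p = 0.383). These 3 were called lower with B2M (VEGFA −2.40, FN1 −2.48, MMP2 −2.15) and the median Ct (VEGFA −2.21, FN1 −2.29, MMP2 −1.96), and VEGFA and FN1 also with GAPDH, at −0.57 (adjusted p = 0.0489) and −0.65 (adjusted p = 0.0334). SNAI2, which encodes the repressor Slug, was at a Ct of 40 in HEK293-vector a and above 38 in the other samples, and had the widest error of the list (0.66, standard error 0.74, adjusted p = 0.500), and it was called lower with B2M at −1.72 (adjusted p = 0.00275). With CTNNB1 of the same sample as the reference all 6 were called lower, with changes from −2.85 for FN1 to −0.84 for CCND1. The panel background for such a lower call is the 60.1% given above.

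In the branches of Wnt signaling that do not use β-catenin, 6 of 8 assays were called higher relative to 18S, beside 58.6% of the panel. ROCK2, a kinase that acts on the actin cytoskeleton, rose by 4.61 (standard error 0.22, adjusted p = 0.00103 from limma). MAP3K7, which encodes the kinase TAK1, rose by 3.29, and the JNK genes MAPK9, MAPK8 and MAPK10 by 2.44, 2.25 and 2.12. With B2M MAP3K7 lost its call, at 0.91 (adjusted p = 0.124), and MAPK9 was at 0.06 with B2M (adjusted p = 0.916) and 0.26 with the median Ct (adjusted p = 0.179). MAPK8 went to −0.13 and MAPK10 to −0.26 with B2M, MAPK10 went to −0.06 with the median Ct, and the mean raw Ct of MAPK10 in HEK293-vector was 38.9, near the end of the run. PRKCA, protein kinase Cα, rose by 1.09 (adjusted p = 0.0422), but its call turned to lower with B2M (−1.29, adjusted p = 0.0265) and with the median Ct (−1.10, adjusted p = 0.00605). The GTPase genes RHOA and RAC1 were at 0.24 and 0.72 (adjusted p = 0.392 and 0.0616). Both were called lower with B2M (RHOA −2.14, adjusted p = 0.000187, and RAC1 −1.66, adjusted p = 0.00396) and the median Ct (RHOA −1.95 and RAC1 −1.46, each adjusted p = 0.00170).

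**Figure D4:**
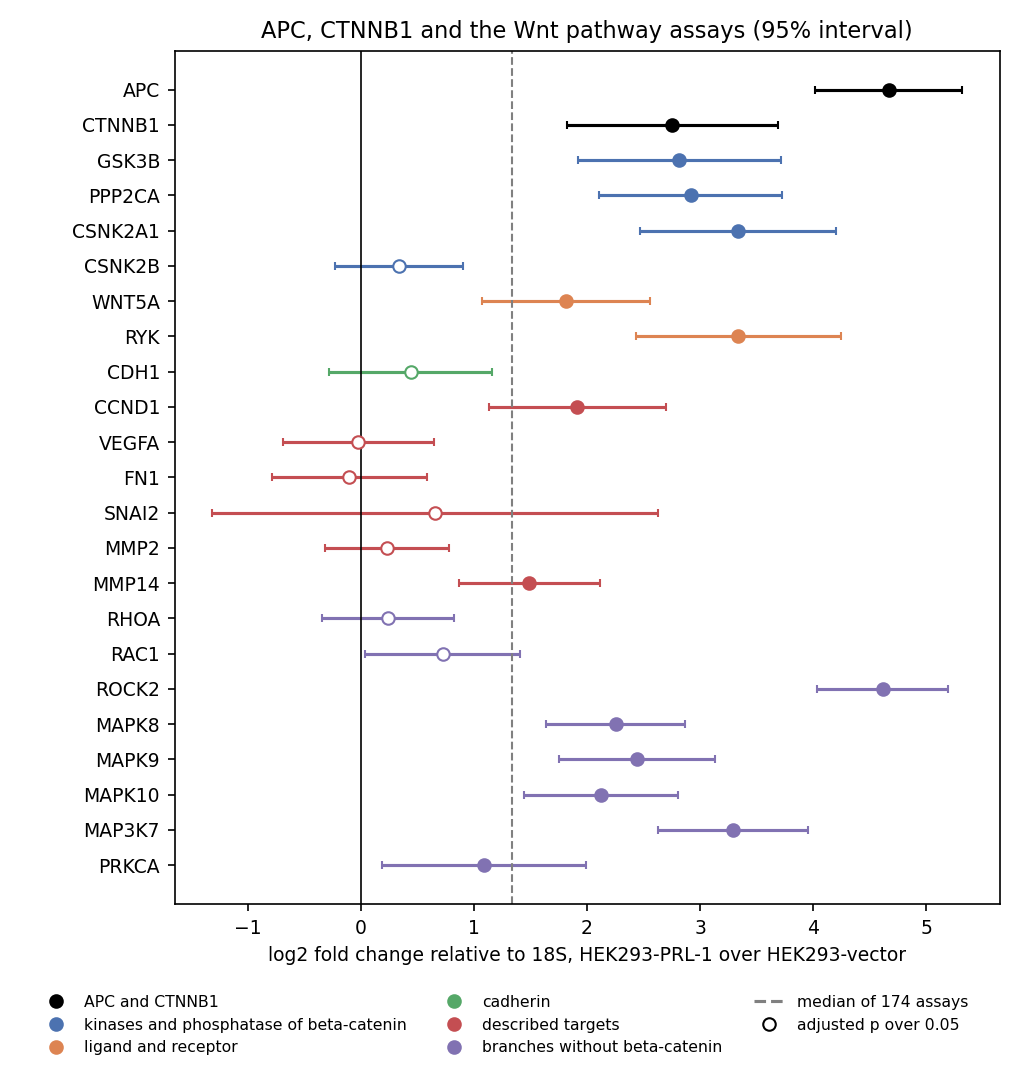
Log2 fold change relative to 18S (horizontal axis, HEK293-PRL-1 over HEK293-vector, 2 samples per group) of APC, CTNNB1 and the 21 tested Wnt pathway assays, coloured by role. Points are estimates and bars 95% intervals from limma, open points have an adjusted p over 0.05, and the dashed line is the median of 174 assays at 1.34. APC and ROCK2 stand furthest to the right, and the described target genes lie mostly to the left of CTNNB1.

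Where an assay started in HEK293-vector went along with its change, though the HEK293-vector Ct is itself part of that change. Error in this Ct alone would give a positive correlation. Over 165 assays, those under 40 in every sample, the mean HEK293-vector Ct and the log2 fold change had a Pearson correlation of 0.409 and a Spearman correlation of 0.449, given as a description, since all assays share the same 4 samples. APC started at 34.5 cycles, and 27 other tested assays started within 1 cycle of it, with a median log2 fold change of 2.97. None of these 27 rose more than APC, and the highest of them was at 4.61. This depended on the width of the window. Assays just outside it, at 35.6 cycles, had larger changes of 5.25 and 6.25 (adjusted p = 0.00201 and 0.137 from limma). CTNNB1 started at 29.1 cycles, and the 37 other tested assays within 1 cycle of it had a median of 0.25. Of these only PPP2CA had a larger change, at 2.92. Within these windows of 1 cycle, both genes were thus at or near the top. The part of the starting Ct in these changes was not tested.

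**Figure D5:**
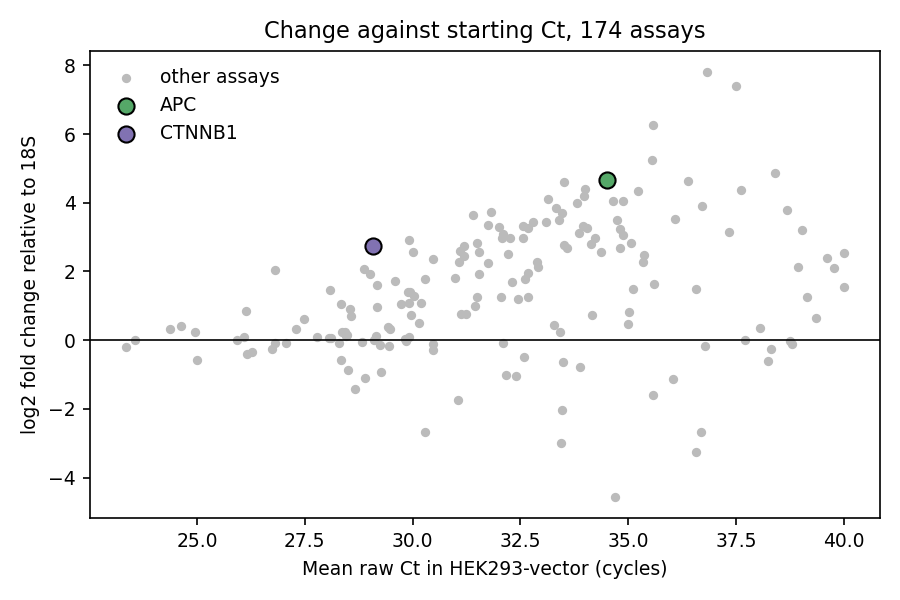
Log2 fold change relative to 18S (vertical axis) against mean raw Ct in the 2 HEK293-vector samples (horizontal axis, cycles) for the 174 tested assays, with APC and CTNNB1 marked and a Ct of 40 kept as 40. APC lies above all 27 assays within 1 cycle of it, and CTNNB1 above all but 1 of its 37. Assays just outside the APC window, at 35.6 cycles, lie above APC.

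The assays most like APC and CTNNB1 were found from the raw Ct over the 4 samples, each centred on its own mean. The measure was the root mean square difference between profiles, over 164 other assays detected in all samples. It is a description of 4 samples, and the reference gene does not enter it. Closest to APC were ROCK2 at 0.151 cycles, PIK3CA at 0.235, MAP3K2 at 0.261, HIF1A at 0.288 and SOS1 at 0.310, against a median of 1.70 over all 164. CTNNB1 had closer neighbours, with PTP4A2 at 0.0293 cycles, GSK3B at 0.0363, ITGA2 at 0.0608 and CAPN2 at 0.0978 among them, against a median of 0.884. PTP4A2 encodes PRL-2, a relative of PRL-1, and ITGA2 the integrin subunit α2. CTNNB1 itself ranked 43 among the neighbours of APC, at 0.970 cycles.

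The raw Ct of ROCK2 was 33.4 and 33.6 in HEK293-vector a and b and 29.2 and 28.9 in HEK293-PRL-1 a and b. The step between the groups is close to that of APC. PTP4A2 was at a raw Ct of 31.6 and 30.8 in HEK293-vector a and b and of 28.9 and 28.4 in HEK293-PRL-1 a and b. As in CTNNB1, sample a had the higher Ct in both groups, by 0.706 and 0.500 cycles in PTP4A2 and by 0.638 and 0.462 cycles in CTNNB1. In APC this gap was 0.252 and 0.234 cycles.

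Markers of other cell types were read against the panel background of 58.6% higher and 7.47% lower. Relative to 18S, 2 of 4 epithelial markers were called higher and 1 lower, 1 of 5 mesenchymal markers higher and 1 lower, and 1 of 3 neural markers lower. Both tested endothelial markers were called higher, while SELE and VCAM1 never went below a Ct of 40 and PECAM1 did so only in HEK293-PRL-1. The summed endothelial level, on the log2 scale relative to 18S, was −20.9 to −20.0 in HEK293-vector and −18.0 to −17.7 in HEK293-PRL-1. FLT1, a receptor of vascular growth factors, carried this sum, with a raw Ct of 34.8 and 34.0 in HEK293-vector and 32.2 and 31.8 in HEK293-PRL-1, so that it stands for 1 assay rather than for a cell type. The summed epithelial level was −17.7 to −17.3 and −16.6 to −16.4, the mesenchymal level −16.5 to −16.3 and −16.0 to −15.5, and the neural level −18.4 to −16.7 and −16.8 to −16.7, in the same order. LAMA3, FN1 and NCAM1 had the lowest raw Ct of these 3 lists in all 4 samples and weigh most in their sums. FN1 itself was at −0.10 relative to 18S. Of the other mesenchymal markers ZEB1 was called higher at 4.33 (adjusted p = 0.00117 from limma) and COL1A1 lower at −1.58 (adjusted p = 0.00663). PDGFRB was at −1.14 and SNAI2 at 0.66, neither called. In HEK293-PRL-1 a and b the raw Ct of ZEB1, at 31.3 and 30.8, came near that of FN1, at 30.9 and 30.5. The part of these differences in the results for APC and CTNNB1 was not tested.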

How the data were processed

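Total RNA of 2 HEK293-vector and 2 HEK293-PRL-1 cultures was treated with DNase, 1 µg was reverse transcribed with random hexamers, and 100 ng cDNA per well was amplified on 2 plates per sample. The deposited values are raw threshold cycles (Ct), 1 for each well and without normalization, with 40 as the highest. A deposited table of the authors' own fold changes was not used.

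The column names give the group but not the replicate number. From each Ct the mean of the sample's 18S wells was taken off. The 174 assays under 40 in 1 or more samples were tested in limma 3.58.1 (lmFit, eBayes, R 4.3.3), and an adjusted p (Benjamini-Hochberg) under 0.05 was called. APC minus CTNNB1 was tested by the same fit with CTNNB1 in place of 18S. A doubling per cycle was assumed. Precision is limited by the 2 samples per group, since Ct values carry no depth. The p-values weigh a change against a spread between these cultures that limma takes partly from the other assays. With 18S its prior degrees of freedom were 2.46, beside 2 of the assay's own. With 1 well per target, this spread also holds the error of the well. Simulated data were used to check the fit.

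Genes named are APC, CTNNB1, the Wnt pathway list, the reference genes, PTP4A1, cell type markers and the 5 closest profiles of each member. The members and lists were chosen with earlier results of these data known. One planned reference and one of these profiles are not reported here. Promoters are from RefSeq, which matched both genes. Summaries and plots used pandas 2.3.3, matplotlib 3.10.9, scipy 1.17.1 and numpy 2.4.6 under Python 3.11.15. Alternatives were other references, sets of assays, variances and amplification rates, a replicate block and each sample left out. The study's microarray and protein data were not analysed here.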

Additional observations from a re-analysis of the deposited data

How the results depend on the processing

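The rise of APC relative to 18S and the change of APC minus CTNNB1 kept their direction and their call under every alternative run. The CTNNB1 log2 fold change lost its call with B2M as the reference, at 0.37 (adjusted p = 0.552), and on its own variance, at 2.75 (adjusted p = 0.0596), and kept it otherwise. With each sample left out in turn, which assumes that the lone sample of a group varies like the others, APC ranged from 4.48 to 4.85, CTNNB1 from 2.38 to 3.13 and the difference from 1.72 to 2.11, each past the threshold of limma, and 11 to 15 list assays were called higher. With 1.9-fold amplification per cycle for every assay they were 4.32, 2.55 and 1.77. Wnt pathway assays called higher numbered 13 with 18S, 6 with the median Ct and 1 with B2M. On each assay's own variance, with 18S, they numbered 10. Those called lower numbered 0 with 18S, 2 with GAPDH, 8 with the median Ct and 9 with B2M. Over all assays 102 were called higher and 13 lower, against 86 and 38 with GAPDH, 45 and 90 with the median Ct, 22 and 82 with B2M, and 42 and 9 on each assay's own variance. Without HEK293-PRL-1 a the lower calls over all assays were 7. The letters a and b of the columns, which are not known to pair cultures, were entered as a replicate block. The APC change was then 4.67 (standard error 0.17, adjusted p = 0.00190), that of CTNNB1 2.75 (standard error 0.19, adjusted p = 0.00231), and 15 list assays were called higher, with RAC1 and SNAI2 added. The cause was not tested.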
